A study of Mus musculus with 9 samples.

Results

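The genes described here make, package and sense GABA, the main inhibitory transmitter of the forebrain. They were chosen as every probe set whose gene symbol in the platform annotation was Gad1, Gad2, Slc32a1, Gabra2, Gabrb2 or Abat. Of these 6 genes, 5 had a probe set, 1 each, among 8251 genes named on the array. Abat, which encodes GABA transaminase, the enzyme that breaks GABA down, had none under that symbol and was not analysed here. All 5 probe sets passed the filter on low values.

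Affymetrix U74Av2 arrays were hybridised with forebrain RNA of male C57BL mice, an inbred strain, labelled as 4 weeks old and housed singly. The clozapine mice drank clozapine, an atypical antipsychotic, at 12 mg/kg/day for 4 weeks, and the haloperidol mice drank haloperidol, a typical antipsychotic and dopamine receptor blocker, at 1.6 mg/kg/day for the same time. Control mice drank water without a drug. Each treatment had 3 arrays from 3 separate animals, 9 in all, and the labels disagree on whether the right or the left side was taken. The labels name no transgene or deletion in any group. The study set out to put the long-term effects of both drugs on the brain side by side, and doses were set at the top of the human range and therefore differ between the drugs.

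GABA is made from glutamate by glutamate decarboxylase, which exists as the products of Gad1 (GAD67) and Gad2 (GAD65). GAD67 supplies most of the GABA in the cell body and GAD65 is enriched at nerve endings. The vesicular transporter encoded by Slc32a1 loads GABA into synaptic vesicles. Released GABA opens GABA-A receptors, chloride channels assembled from several subunits, for which Gabra2 and Gabrb2 encode the alpha2 and beta2 subunits. In the forebrain, GABA is made by interneurons, by the projection neurons of the striatum and by granule and periglomerular cells of the olfactory bulb.

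Values are log2 GCRMA values as deposited, in which 1 unit is a doubling of signal. Several arrays stood apart from the rest. The 3' minus 5' difference of the Actb and Gapdh control probe sets, a measure of how strongly signal favours the 3' end, was 1.73 in control 3 against 0.81 to 1.46 on the other arrays. In haloperidol 3 the pituitary hormone gene Gh was at 12.57, while no other array exceeded 1.28. Without haloperidol 3 the largest haloperidol differences among the 5 chosen genes, those of Gabra2 and Gad1, were 0.394 and 0.345, against 0.43 and 0.272 with it. The first principal component of the tested probe sets held 50.1% of the variance and put clozapine 1, haloperidol 3 and control 1 at -17.61, -19.75 and -19.63, control 3 at 37.51, and the other arrays between 0.48 and 7.0. Forebrain markers were present, with Penk of striatal neurons between 11.26 and 11.86. Of the cerebellum list, 5 of 7 measured genes passed the filter value of 3.45, among them Pcp2 at 7.07 to 7.46 and Zic1 at 9.33 to 10.50, while Gabra6 and Cbln1 of cerebellar granule cells were below it, at most at 3.15 and 2.73.

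**Figure D1:**
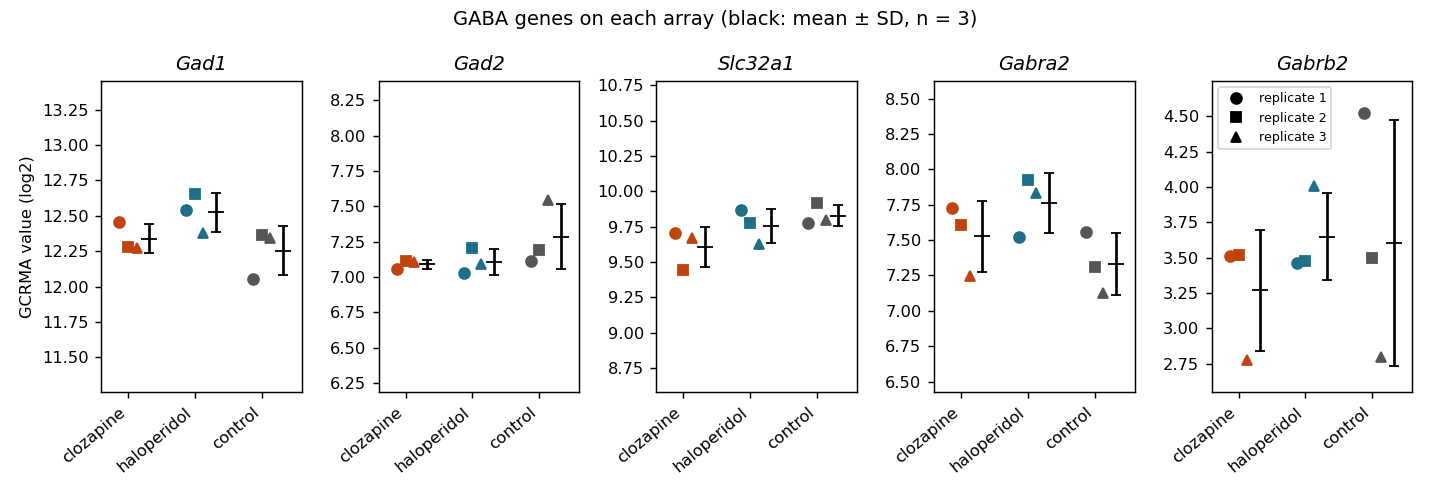
Values of Gad1, Gad2, Slc32a1, Gabra2 and Gabrb2 on each of the 9 arrays, as log2 GCRMA values, by treatment. Marker shapes give the replicate number, black bars the mean and SD of 3 arrays, and all panels span the same number of log2 units. Haloperidol and control arrays did not overlap for Gad1, nor did clozapine and control arrays for Gad2 and Slc32a1, and Gabrb2 varied most within a treatment.

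Of the 5 genes, 0 changed past an adjusted p of 0.05 with either drug. The differences with the lowest unadjusted p were Gabra2 and Gad1, higher in the haloperidol means than in the control means, and Slc32a1, lower in the clozapine mean. In limma's fit over all 9 arrays, 0 of 7453 tested probe sets passed in each of the 3 comparisons, a share of 0%. At an unadjusted p under 0.05, 0 of the 5 genes passed for clozapine against control, where 70 probe sets (0.939%) did, and 1 of 5, Gabra2, passed for haloperidol against control, where 680 (9.12%) did. Between the drugs 0 of 5 passed, against 271 probe sets (3.64%), and in the moderated F test of the 3 treatments 0 of 5 passed, against 251 (3.37%). In bulk tissue, fewer GABA neurons and less RNA per neuron cannot be told apart in any of these values.

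Gad1, the gene of GAD67, measured 12.46, 12.28 and 12.28 in the clozapine mice. In the haloperidol mice it measured 12.54, 12.65 and 12.38, and in the controls 12.05, 12.36 and 12.34. All haloperidol arrays lay above all controls, by a gap of only 0.0162 between the closest arrays, and control 1 was the lowest array of the 9. Such separation above the controls held for 171 of the tested probe sets (2.29%) in this comparison. The haloperidol mean was 12.52 ± 0.14 and the control mean 12.25 ± 0.17 (SD, n = 3 each), a difference of 0.27 ± 0.12 (SE), or 1.21-fold with a 95% confidence interval from 0.999 to 1.46. Limma's adjusted p was 0.53, and the two-sided exact permutation test gave p = 0.1, the smallest that 3 arrays against 3 allow. The clozapine mean was 12.34 ± 0.10, which is 0.09 ± 0.12 above the control mean (95% confidence interval -0.19 to 0.36), and these groups overlapped.

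Control 1 weighed on the Gad1 values. Without it the clozapine difference was -0.0134 and the haloperidol difference 0.172. That array was also the lowest for markers of the olfactory bulb and neuroblasts: relative to the 9-array mean, the mean of the 6 tested genes of 11 listed lay between -0.55 and 0.18 in clozapine mice, between -0.13 and 0.52 in haloperidol mice, at -0.73 in control 1 and at 0.50 and 0.42 in controls 2 and 3. Dlx1, a transcription factor of forebrain GABA neurons, was 6.56 in control 1 and between 7.0 and 8.67 on the other arrays. Other interneuron markers ran the opposite way, with Sst at 9.40 and Vip at 4.84 in control 1, each the highest of the 9 arrays, and the mean of the interneuron list in control 1 was -0.18, beside -0.27 in clozapine 2 and -0.19 in clozapine 3. The part of these markers in the Gad1 difference was not tested.

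Gad2, the gene of GAD65, measured 7.05, 7.11 and 7.11 in the clozapine mice. It measured 7.03, 7.20 and 7.09 in the haloperidol mice, and 7.12, 7.19 and 7.55 in the controls. The drug arrays lay close together, and control 3 stood above all other arrays. Clozapine and control arrays did not overlap, but the gap between the nearest arrays was 0.00597, and 161 tested probe sets (2.16%) were likewise separated below the controls. The clozapine mean of 7.09 ± 0.03 lay at -0.19 ± 0.12 (SE) from the control mean of 7.29 ± 0.23 (SD, n = 3 each), with a 95% confidence interval from -0.47 to 0.08 and a limma adjusted p of 1.0. The haloperidol mean of 7.11 ± 0.09 lay at -0.18 ± 0.12 from the same controls (95% confidence interval -0.45 to 0.10, limma adjusted p = 0.66).

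Without control 3 the Gad2 differences were -0.0642 with clozapine and -0.0478 with haloperidol. With the 3' minus 5' difference as a covariate they were -0.117 with clozapine and -0.0849 with haloperidol. Gad1 and Gad2 had mean differences of opposite sign with each drug as deposited, but with clozapine the Gad1 value was negative too without control 1 (-0.0134) and under array weights (-0.00719). Whether the response differs between the 2 genes was not tested.

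Slc32a1, the gene of the vesicular GABA transporter, measured 9.70, 9.45 and 9.67 in the clozapine mice. In the haloperidol mice it measured 9.87, 9.78 and 9.63, and in the controls 9.77, 9.91 and 9.80. Every clozapine array lay below every control array, with a gap of 0.0700, and haloperidol arrays overlapped both other treatments. Over the array, 161 tested probe sets (2.16%) were separated below the controls with clozapine. The clozapine mean of 9.61 ± 0.14 lay at -0.22 ± 0.10 (SE) from the control mean of 9.83 ± 0.08 (SD, n = 3 each), a 1.17-fold lower signal, with a 95% confidence interval from -0.46 to 0.02. Limma's adjusted p was 1.0, and the exact permutation p was 0.1, again the smallest possible. By limma's unadjusted p, 0.0646, this gene ranked 95 of 7453 in the clozapine comparison. Few probe sets had a low p there, with 70 (0.939%) under 0.05. The haloperidol mean of 9.76 ± 0.12 lay at -0.07 ± 0.10 from the control mean, with an interval from -0.31 to 0.17.

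The lowest Slc32a1 value came from clozapine 2, and without that array the clozapine difference was -0.141. Clozapine 2 and 3 were also the clozapine arrays low in olfactory bulb and neuroblast markers, at -0.55 and -0.33 relative to the 9-array mean, and low in the interneuron list, at -0.27 and -0.19. Control 1, lower still in the olfactory bulb list, had Slc32a1 at 9.77. The part of these markers in the Slc32a1 difference was not tested. Clozapine 1, control 1 and haloperidol 3, which lay together at the low end of the first principal component, were treated as an array set. Within that set the Slc32a1 difference of clozapine 1 from control 1, a single array against a single array, was -0.07. Among the other arrays the clozapine difference was -0.30. The separation from the controls held with each array centred on its median, with a gap of 0.0302, and after quantile normalization, with a gap of 0.0457.

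For Gad1 the separation of haloperidol from control arrays also held with arrays centred on their medians, with a gap of 0.131, but not after quantile normalization. Centring raised the median haloperidol difference of all tested probe sets as well, from -0.0185 as deposited to 0.0875. After quantile normalization that median was -0.0116. For Gad2 the separation of clozapine from control arrays held under neither scaling. The share of all tested probe sets separated under either scaling was not computed.

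Gabra2, the gene of the alpha2 subunit found at many synapses of the forebrain, measured 7.72, 7.61 and 7.25 in the clozapine mice. It measured 7.52, 7.93 and 7.83 in the haloperidol mice and 7.56, 7.31 and 7.12 in the controls. Haloperidol 2 and 3 were the highest arrays of the 9, control 3 was the lowest, and haloperidol 1 lay below control 1, so that the groups overlapped. They also overlapped after quantile normalization, but with arrays centred on their medians all haloperidol arrays lay above the controls, by 0.0535. That centring also raised the array as a whole: the median haloperidol difference of all tested probe sets was 0.0875, against -0.0185 as deposited. The haloperidol mean of 7.76 ± 0.21 lay 0.43 ± 0.17 (SE) above the control mean of 7.33 ± 0.22 (SD, n = 3 each), a fold of 1.35 with a 95% confidence interval from 1.02 to 1.78. The unadjusted interval leaves out 1, but limma's adjusted p was 0.53 and the exact permutation p was 0.2. The clozapine mean of 7.53 ± 0.25 lay 0.20 ± 0.17 above the control mean, with an interval from -0.20 to 0.59.

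The 3' minus 5' difference was 0.87 and 0.81 in haloperidol 2 and 3, the arrays highest in Gabra2, and 1.73 in control 3, the lowest. With that difference as a covariate the clozapine value was 0.00806 and the haloperidol value 0.205, with limma adjusted p of 1 and 0.61. Without control 3 the clozapine value was 0.0919 and the haloperidol value 0.326.

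Gabrb2, the gene of the beta2 subunit, had a low signal, with a mean of 3.51 over the 9 arrays, just above the filter. It measured 3.51, 3.52 and 2.77 in the clozapine mice, 3.46, 3.48 and 4.00 in the haloperidol mice, and 4.52, 3.50 and 2.80 in the controls. The controls alone spanned nearly the whole range of the 9 arrays, from control 3 to control 1. The clozapine mean was 3.27 ± 0.43, the haloperidol mean 3.65 ± 0.31 and the control mean 3.61 ± 0.87 (SD, n = 3 each). The differences from control were -0.34 ± 0.42 (SE) with clozapine, with an interval from -1.30 to 0.63, and 0.04 ± 0.42 with haloperidol, from -0.92 to 1.01, which allows a haloperidol level of up to 2.01-fold the control level. Without control 1 the clozapine value was 0.123, and without control 3 the haloperidol value was -0.361.

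**Figure D2:**
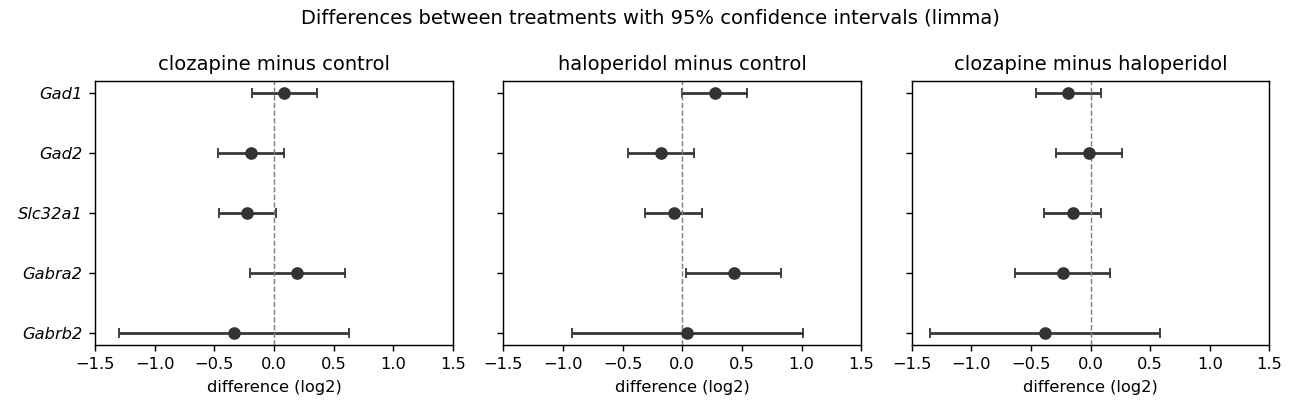
Differences between treatment means of the 5 GABA genes in log2 units (points) with 95% confidence intervals from limma, with panels for clozapine against control, haloperidol against control and clozapine against haloperidol. The interval lies off 0 for Gabra2 in haloperidol against control, where the adjusted p was 0.53, and the intervals of Gabrb2 are the widest of the 5 genes.

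Clozapine and haloperidol were also compared directly, at doses that differ. All 5 clozapine means were below the haloperidol means, where 56.4% of all tested probe sets had the opposite sign, and 0 of the 5 genes separated the arrays of the 2 drugs, as 1276 tested probe sets (17.1%) did. The wider GABA pathway list described below, which includes these genes, was split. Of its 25 tested genes, 13 were lower and 12 higher with clozapine, with a median difference of -0.02. Gad1 differed by -0.19 ± 0.12 (SE, n = 3 each; 95% confidence interval -0.46 to 0.09) and Gad2 by -0.02 ± 0.12 (-0.29 to 0.26). Slc32a1 differed by -0.15 ± 0.10 (-0.39 to 0.09), Gabra2 by -0.23 ± 0.17 (-0.63 to 0.16) and Gabrb2 by -0.38 ± 0.42 (-1.34 to 0.59). The lowest limma adjusted p among them was 0.95, for Gad1. With each array centred on its median, clozapine arrays lay below haloperidol arrays without overlap for Gad1, by 0.0185, and for Slc32a1, by 0.0245. After quantile normalization these genes overlapped between the drugs, and Gabrb2 was lower with clozapine without overlap, by 0.00631. Centring also moved the median of all tested probe sets for this comparison to -0.07, against 0.03 as deposited.

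By treatment mean, haloperidol was highest, clozapine next and control lowest for Gad1 and Gabra2. For Slc32a1 and Gad2 clozapine was lowest, haloperidol next and control highest, and for Gabrb2 clozapine was lowest, haloperidol highest and control between them. For each gene the interval of the difference between neighbours in its order included 0.

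The genes also differed in how steady they were between mice of the same treatment. The residual SD was 0.115 for Slc32a1, 0.141 for Gad1, 0.143 for Gad2, 0.227 for Gabra2 and 0.587 for Gabrb2, beside a median of 0.196 over the tested probe sets. Slc32a1, Gad1 and Gad2 therefore lay at the 23.5th, 32.6th and 33.4th percentile of all tested probe sets for this spread, and Gabrb2 at percentile 95.1. Across the 9 arrays the genes that mark a GABA neuron did not follow each other closely: Pearson's r was -0.04 between Gad1 and Gad2, 0.25 between Gad1 and Slc32a1 and 0.24 between Gad2 and Slc32a1. The pair with the highest r was Gabra2 and Gabrb2, at 0.57 over 9 arrays and 0.41 over 8 arrays without control 3. These correlations describe the 9 arrays, which share treatments and differ in RNA quality, and carry no test.

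**Figure D3:**
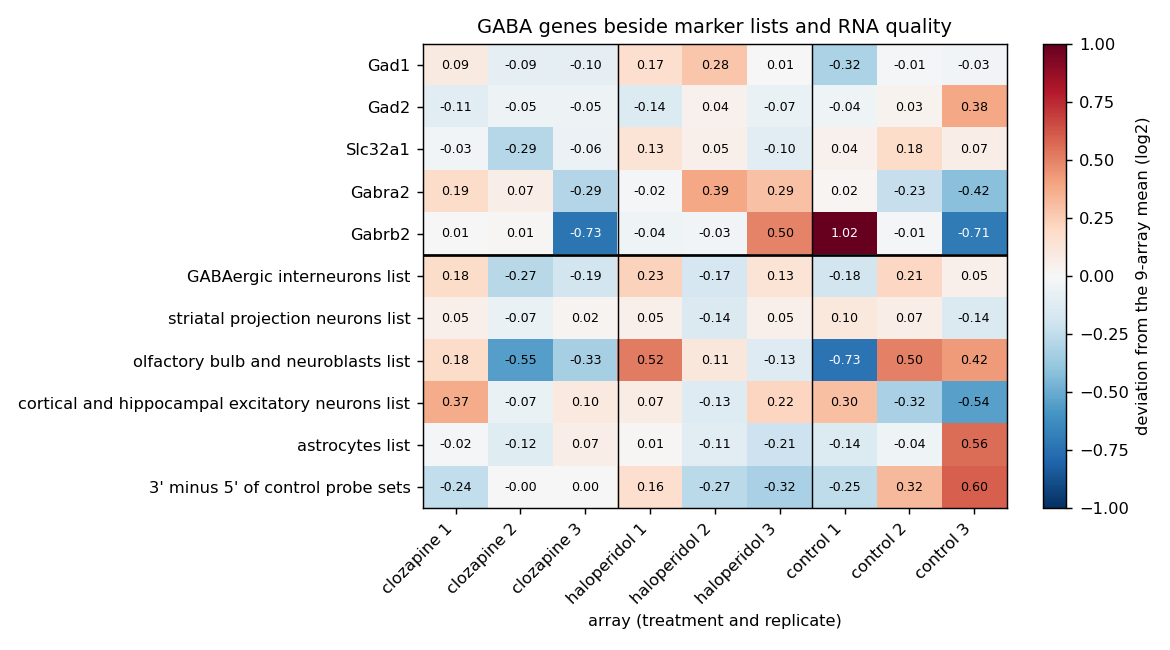
Deviation of each array from the 9-array mean in log2 units, for the 5 GABA genes (above the line), for the mean of each marker list and for the 3' minus 5' difference of the control probe sets. Columns are the clozapine, haloperidol and control arrays. Control 3 was highest in Gad2, in the astrocyte list, which holds Glul, and in the 3' minus 5' difference, and lowest in Gabra2 and the cortical list, and control 1 was lowest in Gad1 and in the olfactory bulb list.

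For each gene the 3 named genes with the most similar pattern over the 9 arrays were taken by Pearson's r. For Gad1 these were Xrn1, an RNA exonuclease (r = 0.85), Lgr5, a receptor of R-spondins (0.83), and Ssr1, of the translocon-associated protein complex (0.83). For Gad2 they were Unc5c, a netrin receptor (0.95), Hs1bp3 (0.95) and Lrpprc, a mitochondrial RNA-binding protein (0.94). Without control 3 these fell to 0.68, 0.50 and 0.65, so the likeness to Gad2 rested largely on that array.

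Slc32a1 was most like Memo1 (0.88), Nop53, a ribosome assembly factor (0.87), and Flt1, a VEGF receptor of vessels (0.83). Gabra2 was most like Prkaca, the catalytic alpha subunit of protein kinase A (0.94), Dpysl3, a cytoskeletal protein of growing axons (0.94), and Nr4a2, a nuclear receptor (0.93). Prkaca and Gabra2 were both highest in haloperidol 2, at 8.53 for Prkaca, and both lowest in control 3, at 7.06. Gabrb2 was most like Pnoc, the nociceptin precursor (0.96), Rnf19b (0.94) and Rprd1a (0.93), and Pnoc was 5.17 in control 1 and 3.92 in control 3. Without control 3 the r of the genes named for Gad1, Slc32a1, Gabra2 and Gabrb2 lay between 0.83 and 0.95. All were picked for a high r on these same arrays among all named tested genes. A high r over the remaining 8 arrays is therefore no separate check, and these values carry no test. By ranks over the 9 arrays some of these likenesses were weaker. Spearman's rho was 0.48 for Gad1 with Xrn1, 0.68 for Gad1 with Ssr1 and 0.68 for Slc32a1 with Nop53. For the other genes named for these it lay between 0.82 and 0.98.

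The wider GABA pathway held 50 listed genes, of which 31 had a probe set and 25 passed the filter. In each comparison 0 of the 25 passed an adjusted p of 0.05. With clozapine 15 lay above the controls and 10 below, with a median difference of 0.04, beside -0.00125 over all tested probe sets, of which 49.5% lay above. With haloperidol 15 lay above and 10 below, with a median of 0.10, beside -0.02 over all probe sets, of which 46.4% lay above. Without control 3 these medians were -0.0359 with clozapine and -0.00673 with haloperidol. The same 3 controls serve both comparisons, so the counts for the drugs are not independent.

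**Figure D4:**
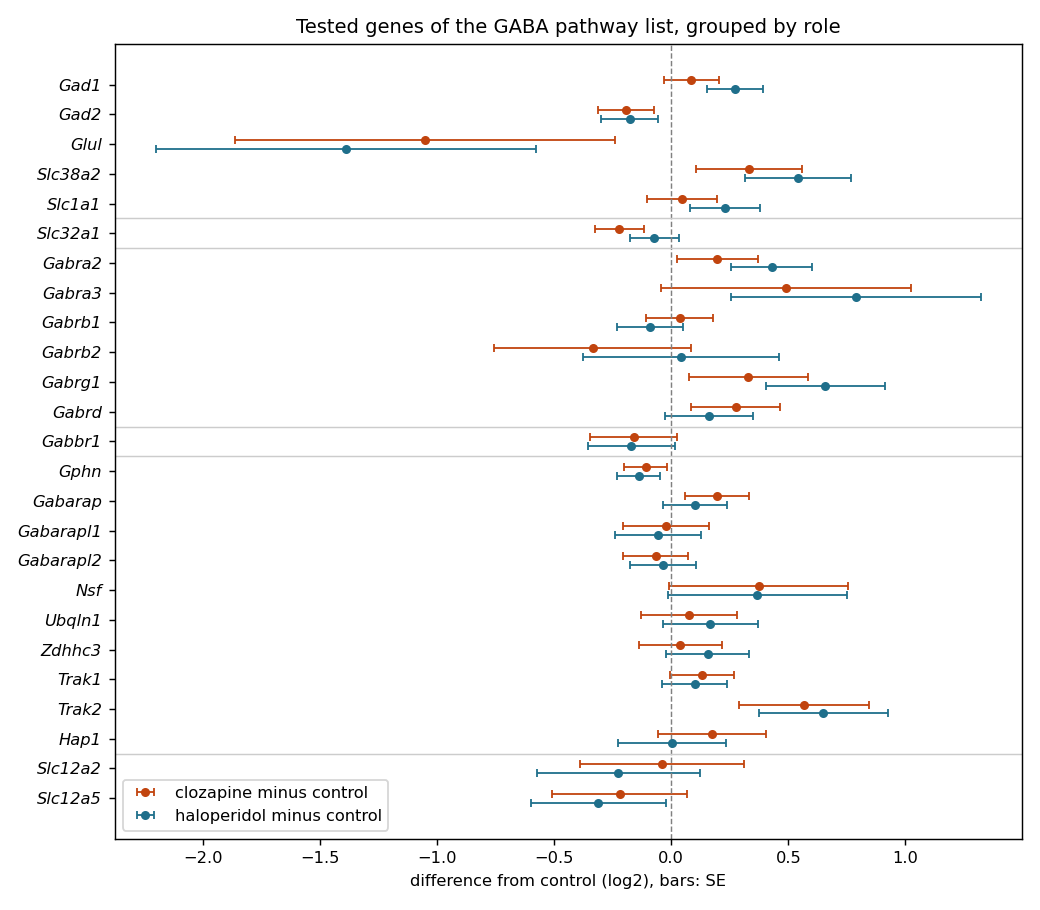
Differences from control in log2 units for the 25 tested genes of the GABA pathway list, with clozapine minus control above haloperidol minus control for each gene and bars for the SE. Lines divide supply and turnover, vesicular transport, GABA-A subunits, the GABA-B subunit, receptor anchoring and traffic, and chloride transporters. None of the genes passed an adjusted p of 0.05, and Glul has the widest bars.

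Among genes of GABA supply, Slc38a2, an amino acid transporter that carries glutamine, measured 10.22, 10.09 and 10.10 with haloperidol, against 9.21, 9.63 and 9.94 in the controls. All haloperidol arrays lay above the controls, a difference of 0.54 ± 0.23 (SE, n = 3 each) with a limma adjusted p of 0.53, and a second tested probe set of low signal gave -0.21. With clozapine the difference was 0.33 ± 0.23. Slc1a1, the neuronal glutamate transporter, differed from control by 0.04 ± 0.15 with clozapine and 0.23 ± 0.15 with haloperidol, and its second probe set gave -0.19 with clozapine and -0.15 with haloperidol. Glul, the glutamine synthetase of astrocytes, differed by -1.05 ± 0.81 with clozapine and -1.39 ± 0.81 with haloperidol. It was 10.31 in control 3, against 7.52 and 8.01 in the other controls, and the 6 other tested genes of the astrocyte list averaged 0.23 in control 3, relative to the 9-array mean, and between -0.11 and 0.10 elsewhere.

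Of 19 listed GABA-A subunits, 10 had a probe set and 6 passed the filter, with 5 of 6 means above the controls for each drug. The 4 that stayed below the filter were Gabra6, Gabrg3, Gabrr1 and Gabrr2. Over all tested probe sets 49.5% lay above the controls with clozapine and 46.4% with haloperidol, and both drugs share the same controls. Control 3 was the lowest control for Gabra2, Gabra3, Gabrb2, Gabrg1 and Gabrd, but not for Gabrb1. The counts of 5 of 6 rested in part on control 3. With clozapine the Gabra3 mean of 5.28 lay below controls 1 and 2, at 5.45 and 5.37. With haloperidol the Gabrd mean of 4.81 lay below the same controls, at 4.88 and 4.91. Gabrb2 with haloperidol was -0.361 without control 3. Without that array fewer than 5 of 6 subunits therefore lay above the controls for each drug. Gabrg1, the gamma1 subunit, measured 3.73, 4.71 and 4.57 with haloperidol against 3.90, 3.61 and 3.52 in the controls. Haloperidol 2 and 3 were high and haloperidol 1 lay among the controls, with a difference of 0.66 ± 0.25 and a limma adjusted p of 0.53. With clozapine Gabrg1 differed from control by 0.33 ± 0.25. Gabra3, the alpha3 subunit, differed by 0.49 ± 0.54 with clozapine and 0.79 ± 0.54 with haloperidol, and it was 3.55 in control 3 against 5.45 and 5.37 in the other controls. Gabrb1, the beta1 subunit, differed by 0.04 ± 0.14 with clozapine and -0.09 ± 0.14 with haloperidol. Gabrd, the delta subunit of receptors outside synapses, differed by 0.27 ± 0.19 with clozapine and 0.16 ± 0.19 with haloperidol.

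Gabbr1, a subunit of the GABA-B receptor that acts through G proteins, differed from control by -0.16 ± 0.19 with clozapine and -0.17 ± 0.19 with haloperidol. Of 13 genes of receptor anchoring and traffic, 10 were tested, and 7 lay above the controls with each drug. Over all tested probe sets 49.5% lay above with clozapine and 46.4% with haloperidol. Among these 7, Nsf, Ubqln1, Zdhhc3, Trak1, Trak2 and Hap1 had their lowest control value in control 3, and Gabarap did not. The Hap1 means of 7.54 with clozapine and 7.37 with haloperidol lay below controls 1 and 2, at 7.65 and 7.56. Without control 3 fewer than 7 of the 10 genes therefore lay above the controls with each drug. Trak2, an adaptor that links cargo to kinesin motors, differed by 0.57 ± 0.28 with clozapine and 0.65 ± 0.28 with haloperidol (limma adjusted p = 0.53 for haloperidol), and it was 5.53 in control 3 against 6.60 and 6.36 in the other controls. Gphn, the gephyrin scaffold of inhibitory synapses, differed by -0.11 ± 0.09 with clozapine and -0.14 ± 0.09 with haloperidol. Gabarap, which binds gamma2-containing receptors, differed by 0.20 ± 0.14 with clozapine and 0.10 ± 0.14 with haloperidol. Slc12a2, which imports chloride, differed by -0.04 ± 0.35 with clozapine and -0.23 ± 0.35 with haloperidol, and Slc12a5, which exports it, by -0.22 ± 0.29 with clozapine and -0.31 ± 0.29 with haloperidol.

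With haloperidol 4 of the 25 pathway genes had an unadjusted p under 0.05 in limma, all above the controls (Gabra2, Gabrg1, Slc38a2 and Trak2), where 153 probe sets (2.05%) did so over the array. With clozapine and between the drugs 0 of 25 did. By groups that did not overlap, 2 of 25 lay above and 1 of 25 below the controls with haloperidol, where the array held 2.29% and 19.4%. With clozapine 0 of 25 lay above and 2 of 25 below, where the array held 1.27% and 2.16%. Array-wide counts below the controls with haloperidol depended on the filter. In limma 527 probe sets were lower at an unadjusted p under 0.05, but 72 with the filter at the 60th percentile.

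Markers of GABA neurons were measured beside these genes. The interneuron list had 12 of 14 measured genes past the filter and its mean ranged from -0.27 to 0.18 in clozapine mice, -0.17 to 0.23 in haloperidol mice and -0.18 to 0.21 in controls. Calb2, the calretinin gene, was between 6.67 and 8.40 in clozapine mice, 7.76 and 7.97 in haloperidol mice and 7.09 and 8.18 in controls. The list of striatal projection neurons, with 7 of 8 measured genes past the filter, ranged from -0.07 to 0.05 in clozapine mice, from -0.14 to 0.05 in haloperidol mice and from -0.14 to 0.10 in controls. The ranges of the 3 treatments overlapped for both lists.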

How the data were processed

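The authors deposited log2 values per probe set, which the submitters' processing notes credit to GCRMA. That method corrects background, normalises arrays to each other and summarises probes. Its version is not given in the sources used here. The step draws weak signals towards a floor, which bears on Gabrb2.

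The table held 12488 probe sets, of which 66 control probe sets were left out. Probe sets with a mean above the 40th percentile (3.448) were tested, 7453 in all. Limma 3.58.1 in R 4.3.3 fitted 1 mean per treatment to the 9 arrays, with p-values adjusted by Benjamini-Hochberg over all 7453 and a threshold of 0.05, two-sided. Alternatives changed the filter, floor, scaling, variance prior, weights, arrays fitted, blocks, RNA quality covariate and threshold. The script was tested on simulated data. The number of arrays limits precision.

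Named were every probe set of the chosen genes, the measured genes of a pathway list by their brightest probe set, and the 3 genes most like each chosen gene. Genes and lists were chosen with earlier results of these data known. Coordinates were not used because the table names no genome build.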

Additional observations from a re-analysis of the deposited data

How the results depend on the processing

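Every alternative run kept the count of called probe sets at 0 in the 3 comparisons and in the F test, which was not run on only the 6 arrays of a comparison, and 0 of the 15 differences of the GABA genes passed an adjusted p of 0.05 under any of them. The lowest limma adjusted p was 0.0947, for Gabra2 with haloperidol under array weights. Of 177 recomputed differences other than those with an array left out, 6 changed sign: Gabrb2 with haloperidol to -0.174 with a floor, -0.551 with the 3' minus 5' covariate and -0.539 without control 3 and haloperidol 3; Slc32a1 with haloperidol to 0.0341 with arrays centred on their medians; Gad2 between the drugs to 0.00691 with quantile normalization; and Gad1 with clozapine to -0.00719 with array weights. Of 135 with an array left out, 7 changed sign, and these differences ranged from -0.361 to 0.502 (Gabrb2, haloperidol), -0.741 to 0.123 (Gabrb2, clozapine), -0.0574 to 0.0324 (Gad2, between the drugs) and -0.0134 to 0.141 (Gad1, clozapine). The cause was not tested. Changes of filter or variance prior, the fit to only the arrays compared, and the blocks for replicate and array set left each estimate as it was. A left-out array likewise could not move a comparison between the other treatments. The totals of 177 and 135 therefore include differences whose sign could not change, and the shares that changed sign understate how often signs reversed where they could.

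The pathway median with haloperidol moved by more than the spread between arrays to -0.0368 with no filter, 0.206 with centred arrays, -0.0317 with array weights, -0.0361 with the 3' minus 5' covariate and -0.0635 without control 3 and haloperidol 3. With clozapine it moved to -0.0676 with that covariate. With arrays left out in turn, it ranged from -0.00759 to 0.172 with haloperidol and from -0.0359 to 0.157 with clozapine. Gabrb2 was not tested with the filter at the 60th percentile. The replicate block could not move an estimate, because every treatment holds each replicate number, so Gabra2 and Gad1 with haloperidol remained at 0.43 and 0.272. It changed no call. Deviations of same-numbered arrays from their treatment means correlated between -0.60 (haloperidol 3 with control 3) and 0.70 (clozapine 1 with control 1). Whether same-numbered arrays shared more than a number was not tested. Haloperidol probe sets with an unadjusted p under 0.05 numbered 153 above and 527 below as deposited, and ranged over the alternatives other than those with an array left out from 101 to 649 above and 72 to 1764 below. With clozapine these were 33 and 37, with ranges of 21 to 415 and 15 to 511, and between the drugs 222 and 49, with ranges of 9 to 1989 and 21 to 200. An adjusted p of 0.10 also called 0.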
